A study of Mus musculus with 20 samples.

Results

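The comparison described here is the loss of *Dnmt3a* alone in megakaryocyte-erythroid progenitors (MEP), set against wild type (WT) MEP. It rests on 6 of the 20 RNA libraries of the series, 3 of *Dnmt3a*-/- MEP and 3 of WT MEP, chosen by the genotype and cell type of their labels and not by any measured value. The study crossed mice with conditional *Bcor* and *Dnmt3a* alleles to the *Mx1-Cre* transgene and asked how both losses act in blood cells. It measured RNA of sorted MEP and of LSK cells, the Lin-Sca1+Kit+ compartment that holds the stem cells, in mice with no deletion, with either single deletion and with both. All mice are labelled C57BL/6. The labels give each of the 6 libraries its own mouse, so that the replicates were separate animals, and name the same mice for the LSK cells. The *Dnmt3a*-/- mice carried the deletable *Dnmt3a* allele and *Mx1-Cre*, a Cre driven by an interferon-inducible promoter that pIpC, a synthetic double-stranded RNA, switches on throughout the blood system and in other tissues. The study describes the *Dnmt3a* deletion of these single knockout mice as partial, so that the libraries can hold RNA of cells that kept the gene. The WT mice had untargeted genes. The study shows blood cell numbers of WT controls before and after pIpC induction. Whether the sequenced WT mice received pIpC or carried *Mx1-Cre*, and the ages of the sequenced mice, are not given in the sources used here.

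DNMT3A is 1 of the enzymes that place methyl groups on cytosines of CpG dinucleotides that were unmethylated before, whereas DNMT1 copies existing methylation after replication and the TET enzymes oxidize it. *DNMT3A* is among the genes most often mutated in human clonal hematopoiesis and acute myeloid leukemia, and its loss in mouse stem cells favours self-renewal over differentiation. MEP are the progenitors of red cells and of megakaryocytes, whose programmes are led by GATA1 with KLF1 on the erythroid side and with FLI1 and other ETS factors on the megakaryocyte side. The sort took lineage-negative, Sca1-negative, Kit-positive cells with no CD34 and with low or no Fc gamma receptor II/III.

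The values are FPKM, the fragments of a transcript divided by its length and by the size of the library, as the authors deposited them. Without counts the depth is unknown, and the spacing of the lowest values put the relative depth of the 6 libraries between 1 and 1.48 times that of WT replicate 1. Differences were computed on log2(FPKM + 1), which understates the change of low genes, for the 10431 of 24315 listed genes whose FPKM averaged 1 or more in these libraries. The gate was visible in the RNA of all 6 libraries by most genes given here, but not by *Cd34*, whose product it sorts against. *Cd34* had 44.1, 4.46 and 6.08 FPKM in *Dnmt3a*-/- replicates 1 to 3 and 23.9, 5.43 and 60.6 in WT. *Gata1* had 170.2 to 224.7 FPKM, *Klf1* 144.3 to 225.7, the erythropoietin receptor gene *Epor* 78 to 119 and *Kit* 62.7 to 83.5, while *Ly6a*, which encodes Sca1, had at most 0.79 and the Fc receptor gene *Fcgr3* 1.21 to 5.46. *Flt3*, a gene of earlier progenitors, ranged from 3 to 20.9 FPKM with overlap between the genotypes. *Xist* had at most 0.0649 FPKM in any of the 6 libraries and the Y-linked *Ddx3y* 14.8 to 22 FPKM. Across tested genes, which are no independent replicates, Pearson's r was 0.967 to 0.986 between libraries of 1 genotype and 0.969 to 0.984 between genotypes.

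Few genes separated *Dnmt3a*-/- from WT MEP. A gene was called where limma gave an unadjusted p under 0.05 and the levels differed by more than 1.5-fold, which are the study's own limits, and 93 genes (0.892% of those tested) met them. Of these, 39 were higher (0.374%) and 54 lower (0.518%) in *Dnmt3a*-/- MEP. At any fold change, 533 genes (5.11%) had an unadjusted p under 0.05, where a test without any difference gives 5%. With Benjamini-Hochberg adjustment over all genes, limma called 0 genes (0%), and the lowest adjusted p was 0.0887. The calls below are therefore calls at the unadjusted p. Many named genes are given with their values in the libraries, others with a log2 fold change or by name only. All *Dnmt3a*-/- values lay above all WT values in 541 tested genes (5.19%) and below them in 538 (5.16%), and 48.1% of the tested genes had a log2 fold change above 0, with a median of -0.007. Of the called genes, 23 higher and 34 lower ones had values that did not overlap between the genotypes. Only 13 higher and 5 lower genes differed by more than 2-fold, 44 of the 93 had a mean under 5 FPKM, and 8 had a listed value of 0 in at least 1 library. The balance of directions depended on the scaling, since quantile normalization gave 49 higher and 40 lower genes.

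*Dnmt3a* itself was lower. It had 5.40, 2.97 and 2.56 FPKM in *Dnmt3a*-/- replicates 1 to 3 and 6.11, 5.49 and 6.64 in WT. The 3 *Dnmt3a*-/- libraries lay below the WT libraries, with replicate 1 just below the lowest of them. The log2 fold change was -0.65 (SE 0.22, limma adjusted p = 0.854), and a two-sided exact permutation test gave p = 0.1, the smallest it can give with 3 libraries against 3. The RNA was thus lower in these 3 libraries, without passing adjustment, and not lost. A deletion of some exons need not remove the RNA of a gene. In LSK cells of the same mice *Dnmt3a* had 16.9, 14.0 and 11.3 FPKM against 19.85, 16.1 and 17.2 in WT. These values overlapped, and the gene was not called there (-0.32). The double knockout MEP libraries had 6.85 and 3.44 FPKM, the first above every WT MEP library. An antisense gene overlaps *Dnmt3a*, and its reads cannot be told apart where strand was not used. *Dnmt3a* was not called when *Dnmt3a*-/- replicate 2 (-0.57), *Dnmt3a*-/- replicate 3 (-0.49) or WT replicate 3 (-0.60) was left out.

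The other genes that write, read or erase DNA methylation did not pass the call. Of 19 tested members, *Dnmt3a* included, 18 were not called, and the median log2 fold change of all 19 was -0.07. No call among the other members is near the 0.892% of all genes called, and no result about them. *Dnmt1*, the maintenance enzyme, had 119.9 to 127 FPKM in *Dnmt3a*-/- and 104.9 to 116.6 in WT libraries. These values did not overlap, and the difference was 0.18 on the log2 scale (SE 0.08). *Dnmt3b*, the other enzyme that methylates unmethylated CpG, differed by -0.07 (95% interval -0.37 to 0.24). *Tet2*, an eraser that is itself mutated in clonal hematopoiesis, had 1.76 to 2.71 FPKM in *Dnmt3a*-/- and 2.33 to 3.36 in WT, with overlap.

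**Figure D1:**
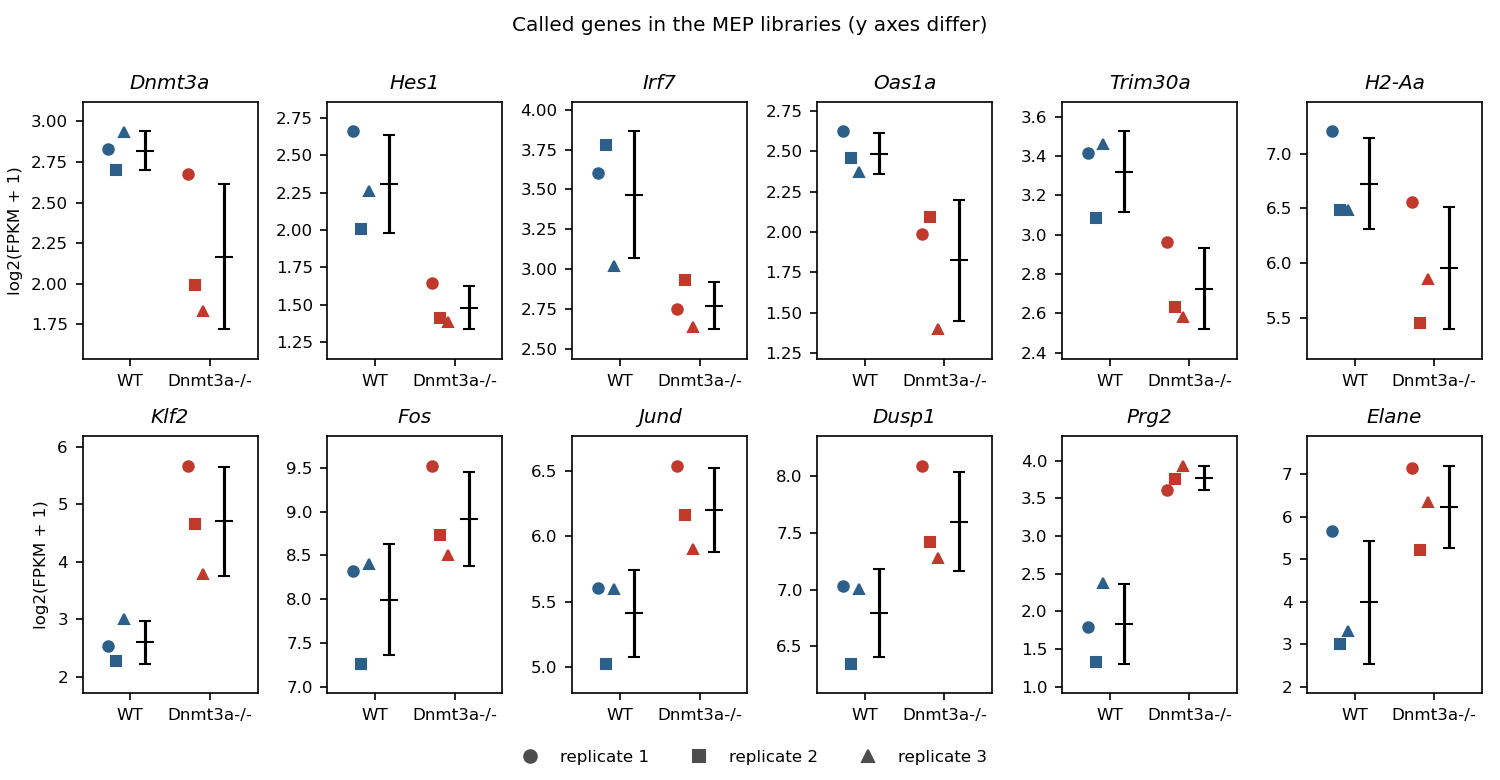
Values of 12 called genes in the 3 WT (blue) and 3 *Dnmt3a*-/- (red) MEP libraries as log2(FPKM + 1), with 1 symbol per replicate number and the mean ± SD (n = 3) in black. *Prg2* shows a gap wider than the spread within each genotype, while *H2-Aa* and *Elane* overlap between the genotypes, and the *Dnmt3a*-/- value of *Dnmt3a* nearest to WT is that of replicate 1.

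Several genes were lower with no overlap. The predicted gene *LOC100504703* had 11.9, 13.6 and 10.7 FPKM in *Dnmt3a*-/- MEP against 25.1, 24.5 and 19.12 in WT (log2 fold change -0.87, SE 0.13), and was called in each fit that left out 1 library. *Hes1*, a target and repressor of the Notch pathway, had 2.12, 1.66 and 1.61 FPKM in *Dnmt3a*-/- against 5.32, 3.02 and 3.79 in WT MEP (-0.83, SE 0.20). *S100a4*, which encodes a calcium-binding protein of motile cells, had 8.33, 5.59 and 5.15 against 20.3, 14.5 and 8.64 (-1.02, SE 0.29). *Ccr2*, the receptor of the monocyte chemoattractant CCL2, had 6.31, 3.40 and 4.15 against 11.9, 6.70 and 9.81 (-0.90, SE 0.24). *Ctsh*, which encodes the lysosomal protease cathepsin H, and *Klra8*, an activating receptor of NK cells, were lower as well, by 0.91 and 1.16 on the log2 scale. *Gm12191*, a predicted gene, was the largest decrease without overlap, at 0.84, 0.0013 and 2.30 FPKM against 27.1, 17.5 and 6.67, and the RNA component of RNase MRP, *Rmrp*, had 3.22 and 1.45 and was listed at 0 in the third *Dnmt3a*-/- library, against 5.41 to 8.65. Both are features of uncertain value, since each varied several-fold within a genotype and short or repeated transcripts are hard to count from fragments.

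Interferon-stimulated genes, which cells switch on in answer to type I interferon, were lower as far as they were called. Of 32 tested members 5 were called, all lower, against 0.518% of all genes, and 27 did not pass. In 10 of the 32 all *Dnmt3a*-/- values lay below all WT values, against 5.16% of all genes, and 29 of the 32 had a log2 fold change below 0, with a median of -0.22 where the median of all genes was -0.007. In bulk RNA such as this, fewer cells of a type and less RNA per cell cannot be told apart. *Irf7*, the transcription factor that amplifies the interferon response, had 5.71, 6.63 and 5.2 FPKM in *Dnmt3a*-/- and 11.2, 12.7 and 7.12 in WT MEP, a log2 fold change of -0.70 (SE 0.20). *Oas1a*, a sensor of double-stranded RNA, had 2.97, 3.26 and 1.63 against 5.17, 4.50 and 4.19 (-0.66, SE 0.21). *Trim30a* had 6.79, 5.2 and 4.98 against 9.67, 7.47 and 10.01 (-0.59, SE 0.16). *Zbp1*, a sensor of Z-form nucleic acids, and *Rtp4* were low in all libraries, at 0.49 to 0.68 against 0.97 to 2.55 FPKM and at 0.76 to 1.58 against 1.91 to 2.86. *Zbp1* averaged 0.57 FPKM in *Dnmt3a*-/- and 1.64 in WT, and so passed the filter only through WT. Its place among the called members is therefore not independent of its difference. All 5 had no overlap between the genotypes. *Bst2*, whose product tethers budding viruses, differed by -0.31 on the log2 scale, with an unadjusted limma p under 0.05 and no overlap but a fold change under 1.5, whereas *Ifitm3* (-0.07) and *Ifit2* (-0.02) differed little. The summed level of the list was 525 to 597 FPKM in *Dnmt3a*-/- and 570 to 655 in WT libraries, so that the sums, which the abundant members set, overlapped. The number of called members was 2 without *Dnmt3a*-/- replicate 2 or 3, 3 without WT replicate 1 and 4 or 5 without each other library, and 2 after quantile normalization, in a fit of all 10 MEP libraries and with a minimum mean of 5 FPKM, which left 20 members tested. Of all tested genes, the fits that left out 1 library called 36 to 256 lower. *Oas1a*, *Trim30a* and *Rtp4* were not called after quantile normalization or in the fit of 10 libraries. *Irf7* was not called without WT replicate 2 (-0.54), and *Oas1a* not without *Dnmt3a*-/- replicate 3 (-0.45). *Trim30a* was not called without *Dnmt3a*-/- replicate 2 (-0.55) or 3 (-0.52) or WT replicate 1 (-0.55) or 3 (-0.52). *Zbp1* was not called without *Dnmt3a*-/- replicate 1 (-0.70) or 2 (-0.67) or WT replicate 1 (-0.47). *Rtp4* was not called without *Dnmt3a*-/- replicate 2 (-0.53) or 3 (-0.60) or WT replicate 2 (-0.52).

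The promoters of called genes were read from the RefSeq windows of GRCm38.p6, of which the 250 bases before the start site were kept. A window was found by symbol for 63 of the 93 called genes. The interferon-stimulated response element was searched as GAAANNGAAA on both strands, and overlapping matches were counted. It stood in 12 of the 27 windows of the tested interferon-stimulated genes (44.4%), in 5 of the 36 windows of genes called lower (13.9%) and in 0 of the 27 windows of genes called higher, against 3.46% of all 27025 genes with a window and 3.22% of tested genes. The 5 were *Oas1a*, *Trim30a*, *Slfn8*, *Mndal* and *Ctss*. The windows of *Oas1a* (chr5:120907526-120907775, minus strand) and of *Trim30a* (chr7:104465194-104465443, minus strand), which was 1 of 2 windows of that gene, are shown because both genes were called and both hold the element, printed in capitals. In *Oas1a* 2 overlapping matches ended 5 bases before the start site, and in *Trim30a* the match lay 36 to 27 bases before it, on the other strand.
Oas1a: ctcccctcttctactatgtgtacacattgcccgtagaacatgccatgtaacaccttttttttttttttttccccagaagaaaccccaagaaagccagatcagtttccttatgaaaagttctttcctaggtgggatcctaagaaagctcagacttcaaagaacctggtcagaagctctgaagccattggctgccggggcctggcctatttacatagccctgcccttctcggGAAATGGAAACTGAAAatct
Trim30a: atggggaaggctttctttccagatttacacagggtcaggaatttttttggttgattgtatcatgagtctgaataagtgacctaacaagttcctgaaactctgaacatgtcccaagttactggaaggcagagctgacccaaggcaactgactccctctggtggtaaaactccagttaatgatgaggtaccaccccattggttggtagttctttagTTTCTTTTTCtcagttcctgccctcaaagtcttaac

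Immediate early and stress genes were higher as far as they were called. These genes answer growth signals and handling stress within minutes, and many of them encode AP-1 and Krüppel-like factors. Of 30 tested members 6 were called, all higher, against 0.374% of all genes, and 24 did not pass. In the same 6 all *Dnmt3a*-/- values lay above all WT values (5.19% of all genes did so), and the median of the list was 0.26. *Klf2*, a factor of quiescence in lymphoid and endothelial cells, had 49.99, 24.1 and 12.7 FPKM in *Dnmt3a*-/- and 4.76, 3.83 and 7.05 in WT MEP. The lowest *Dnmt3a*-/- library was well above the highest WT library. The log2 fold change was 2.10 (SE 0.43, limma adjusted p = 0.854), the largest increase among the called genes without overlap. *Fos*, an AP-1 subunit, had 736, 424 and 361 FPKM against 320.1, 153 and 337 (0.92, SE 0.35). *Jund*, its partner, had 92.1, 70.5 and 58.7 against 47.7, 31.6 and 47.5 (0.79, SE 0.20). *Dusp1*, which dephosphorylates MAP kinases, had 272, 170.4 and 154.5 against 129.8, 80.4 and 127.4 (0.80, SE 0.25), and *Klf6* 109.8, 48.2 and 48.9 against 37.6, 15.6 and 43.0 (1.09, SE 0.42). *Hspa1b*, an inducible HSP70 gene, was low throughout, at 1.16 to 3.15 against 0.16 to 0.67 FPKM. It averaged 1.84 FPKM in *Dnmt3a*-/- and 0.35 in WT, and so passed the filter only through the group where it was high. Its place among the 6 is therefore not independent of its difference. In *Klf2*, *Fos*, *Jund*, *Dusp1* and *Klf6* *Dnmt3a*-/- replicate 1 was the highest library and WT replicate 2 the lowest. *Jun* (0.50), *Junb* (0.34) and *Ier2* (0.39) were not called, and *Egr1* (-0.13), *Nr4a1* (-0.56) and *Egr2* (-0.48) had values on the other side of 0.

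These calls leaned on those 2 libraries. Without *Dnmt3a*-/- replicate 1 the list had 3 members called higher and a median of 0.15, and *Fos* (0.62), *Dusp1* (0.56) and *Klf6* (0.70) were not called. Without WT replicate 2 it had 3 members called higher, 5 called lower and a median of 0.04. The same genes stood at 0.56, 0.58 and 0.65, again not called. Of all tested genes these 2 fits called 38 and 72 higher, and 256 and 161 lower. *Klf2*, *Jund* and *Hspa1b* were called in each fit that left out 1 library, *Klf2* at 1.61 to 2.56 and *Jund* at 0.60 to 0.94. Of the list, 4 members were called higher after quantile normalization, where *Fos* and *Klf6* were not, and 3 in a fit of all 10 MEP libraries, where *Fos*, *Klf6* and *Dusp1* were not. *Fos* and *Klf6* were also not called without the filter on low values. The summed level of the list was 3671, 2613 and 2528 FPKM in *Dnmt3a*-/- and 2532, 1688 and 2503 in WT libraries.

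The promoters of *Klf2* (chr8:72318812-72319061, plus strand) and *Dusp1* (chr17:26508473-26508722, minus strand) are shown as those of the called genes of the list that hold 1 of the 3 motifs searched for it. The MEF2 motif, searched by its usual degenerate form on both strands, lay 118 to 109 bases before the start site of *Klf2*, and was found in 3.42% of all genes with a window, in 1.83% of tested genes and in 15.4% of the 26 windows of this list. The cyclic AMP response element TGACGTCA lay 143 to 136 bases before the start site of *Dusp1*, and was found in 1.77% of all genes, in 3.27% of tested genes and in 2 of the 26 windows (7.69%). The CArG box, the binding motif of serum response factor, was found in 0 of the 6 windows of the called members, in 2 of the 26 windows of the list (7.69%), in 1.62% of all genes and in 1.37% of tested genes. Of the 27 windows of genes called higher, each of the 3 motifs stood in 1 (3.7%). Of the 36 windows of genes called lower, MEF2 stood in 0, the cyclic AMP element in 1 (2.78%) and CArG in 2 (5.56%). The motifs were chosen after the promoters had been read. The capitals mark the MEF2 motif in the first and the cyclic AMP response element in the second sequence.
Klf2: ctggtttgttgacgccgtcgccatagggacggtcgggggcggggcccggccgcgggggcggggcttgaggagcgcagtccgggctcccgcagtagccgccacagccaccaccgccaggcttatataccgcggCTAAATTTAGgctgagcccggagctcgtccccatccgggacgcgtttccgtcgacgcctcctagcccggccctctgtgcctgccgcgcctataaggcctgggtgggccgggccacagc
Dusp1: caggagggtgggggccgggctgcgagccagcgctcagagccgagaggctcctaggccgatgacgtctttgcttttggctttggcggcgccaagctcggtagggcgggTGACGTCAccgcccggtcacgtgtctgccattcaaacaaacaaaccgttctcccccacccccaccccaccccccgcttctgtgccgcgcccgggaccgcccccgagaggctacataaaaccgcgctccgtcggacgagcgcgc

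Genes of granulocyte and monocyte precursors held the largest increase among the called list members, that of *Elane*, and varied widely between replicates. Of 21 tested members 3 were called higher and 1 lower, against 0.374% and 0.518% of all genes, and the median was 0.33. Without *Dnmt3a*-/- replicate 2 (median 0.59) or WT replicate 1 (0.43) 7 were called higher and 0 lower. Those fits called 38 and 40 of all tested genes higher. The count was 1 higher and 2 lower without *Dnmt3a*-/- replicate 1 (median -0.05), without WT replicate 2, 1 higher and 3 lower (0.03), and without WT replicate 3, 1 higher and 0 lower (0.33). Of all tested genes, 256 were called lower without *Dnmt3a*-/- replicate 1 and 161 without WT replicate 2. *Prg2*, the major basic protein of eosinophil granules, had 11.2, 12.5 and 14.3 FPKM in *Dnmt3a*-/- and 2.48, 1.505 and 4.21 in WT MEP. This was a difference without overlap, 1.93 on the log2 scale (SE 0.25, limma adjusted p = 0.30), and it was called in each fit that left out 1 library, at 1.68 to 2.21. In LSK cells of the same mice *Prg2* stood at -0.46 and was not called. *Elane*, which encodes neutrophil elastase, had 141, 36.5 and 80.2 FPKM against 49.4, 7.08 and 8.86, with overlap (2.25, SE 0.72). *Ms4a3*, a gene of granulocyte-monocyte progenitors, had 28.4, 8.32 and 18.1 against 11.3, 1.88 and 3.34, also with overlap (1.69, SE 0.57). The other primary granule genes *Mpo* (1.49), *Prtn3* (1.45) and *Ctsg* (1.30) were not called. *Mpo* ranged from 52.7 to 255 FPKM in *Dnmt3a*-/- and from 10.8 to 96.1 in WT libraries. In an alternative fit with the replicate number as a block, 7 members of the list were called higher and 2 lower. There *Elane*, *Ms4a3*, *Prg2* and *Prtn3* had a limma adjusted p of 0.0408. These values rest on pairing *Dnmt3a*-/- and WT mice by replicate number, a link that the labels do not give. On the monocyte side *Ly86* was called lower (-0.66) and *Irf8*, the factor of monocyte and dendritic fate, stood at -0.75 and was not called. Without *Dnmt3a*-/- replicate 1, WT replicate 2 or WT replicate 3, *Elane* (1.79, 1.76 and 1.91) and *Ms4a3* (1.31, 1.25 and 1.54) were not called. *Ly86* was not called without *Dnmt3a*-/- replicate 2 (-0.43) or 3 (-0.55) or WT replicate 1 (-0.55) or 3 (-0.65). It was also not called without the filter on low values, after quantile normalization or in the fit of all 10 MEP libraries. The same held for limma without the trend and with 1 variance per genotype. The summed level of the list was 728, 195 and 377 FPKM in *Dnmt3a*-/- and 340, 78.4 and 227 in WT libraries, so that it differed more than 3-fold within each genotype. Late neutrophil genes, such as *S100a8* and *S100a9*, had no member called among 15 tested (median -0.12), near the 0.892% of all genes called. Their sums overlapped, at 311 to 593 and 338 to 614 FPKM. Of the 15 genes, 4 were called lower without *Dnmt3a*-/- replicate 1 (median -0.48), where 256 of all tested genes were. Without *Dnmt3a*-/- replicate 2, 2 were called higher (-0.01), and without WT replicate 1, 1 was (-0.07). After quantile normalization, and in a fit with the replicate number as a block, 1 was called higher.

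Lists of other blood cells that a gate can hold had few calls. MHC class II and dendritic genes had 1 of 11 tested members called lower, against 0.518% of all genes, and all 11 had a log2 fold change below 0, with a median of -0.51. *H2-Aa*, an MHC class II chain, had 93.2, 42.9 and 56.9 FPKM in *Dnmt3a*-/- and 146, 88.7 and 88.7 in WT MEP, a log2 fold change of -0.77 (SE 0.29) with overlap through *Dnmt3a*-/- replicate 1. Without *Dnmt3a*-/- replicate 2 (-0.52) or 3 (-0.72) or WT replicate 1 (-0.53) it was not called. Without *Dnmt3a*-/- replicate 1, 8 of the 11 members were called lower, and without WT replicate 3, 2 were. Those fits called 256 and 47 of all tested genes lower. *H2-Ob*, an MHC class II gene outside the list and noted after its values were seen, was called lower too, at 8.02, 3.14 and 4.78 FPKM against 8.25, 6.93 and 11.3 with overlap (-0.69, SE 0.28), and it was called in 2 of the 6 fits that left out 1 library, without *Dnmt3a*-/- replicate 1 or WT replicate 2. Of 11 tested T and NK lineage genes *Ncr1*, the NK receptor NKp46, was called lower (0.518% of all genes were), at 1.18 to 3.18 against 3.64 to 6.43 FPKM, and it was not called without *Dnmt3a*-/- replicate 1 (-0.62) or WT replicate 2 (-0.63). The median of that list was -0.38. Without *Dnmt3a*-/- replicate 3 or WT replicate 3, 3 members were called lower, where 42 and 47 of all tested genes were. Of 5 tested macrophage genes *Vcam1*, an adhesion molecule, was called higher (0.374% of all genes were), at 1.32, 1.83 and 2.37 against 0.70, 0.40 and 0.41 FPKM (0.91, SE 0.23). It averaged 1.84 FPKM in *Dnmt3a*-/- and 0.50 in WT, and so passed the filter only through the group where it was high. Its call is therefore no result about the list. Of 15 tested B lineage genes *Vpreb2*, a surrogate light chain, was called higher (0.374% of all genes were), at 3.97, 2.97 and 4.37 FPKM against 4.46 in WT replicate 2 and values listed at 0 in the other WT libraries. Of the fits that left out 1 library, only that without WT replicate 2 called it (2.24). Without each other library it stood at 1.02 to 1.55 and was not called. It was also not called without the filter on low values, after quantile normalization or in limma without the trend. The same held in the fit of all 10 MEP libraries. The median of the B lineage list was 0.24, and its direction changed with the libraries. Without WT replicate 2, 6 members were called higher (median 0.68), where 72 of all tested genes were. Without *Dnmt3a*-/- replicate 1, 3 were called lower (median 0.15), where 256 of all tested genes were. Without WT replicate 3 none was called and the median was -0.30. The summed levels in *Dnmt3a*-/- and WT libraries were 241 to 455 and 378 to 589 FPKM for MHC class II genes, 47.0 to 110.0 and 87.8 to 100.2 for T and NK genes, 120 to 191 and 142 to 178 for macrophage genes and 220 to 371 and 228 to 421 for B lineage genes, and overlapped in each case. In the fit of all 10 MEP libraries *H2-Aa*, *Ncr1* and *Vcam1* were not called. *Ncr1* was also not called after quantile normalization, and *H2-Aa* not without the filter on low values. The part of these other blood cells in the results above was not tested.

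In the main test, genes of the MEP's own fates had no member called, in lists of this size near the 0.892% of all genes. This holds for 4 tested globin and chaperone genes, 13 heme synthesis enzymes, 12 iron handling genes, 20 red cell membrane and cytoskeleton genes, 24 erythroid transcription and Epo signaling genes, 24 megakaryocyte and platelet genes and 23 stem cell and early progenitor genes. The medians were 0.28, 0.17, 0.10, 0.13, 0.09, -0.07 and -0.19 in this order. After quantile normalization 1 of the 24 erythroid transcription and Epo signaling genes was called higher. Without WT replicate 2, 3 of the 4 globin genes (median 0.75) and 2 red cell membrane genes (median 0.31) were called higher, and 3 megakaryocyte genes (median -0.52) and 1 stem cell gene (median -0.51) lower. Leaving out *Dnmt3a*-/- replicate 1 called 2 red cell membrane genes higher (median 0.25) and 2 stem cell genes lower (median -0.42). Of all tested genes, 72 were called higher and 161 lower without WT replicate 2, and 38 and 256 without *Dnmt3a*-/- replicate 1. All 13 heme enzymes had a log2 fold change above 0, from 0.09 to 0.28, but none reached an unadjusted p under 0.05. *Alas2*, the erythroid enzyme that starts the pathway, differed by 0.11. *Klf1* and *Zfpm1*, which encodes the GATA1 cofactor FOG1, were above WT in all *Dnmt3a*-/- libraries, by 0.36 (SE 0.12) and 0.44 (SE 0.09), both under 1.5-fold. *Klf1* had 194, 226 and 207 FPKM against 144, 192 and 153.5, and *Zfpm1* 111, 110.0 and 99.5 against 72.6, 81.1 and 81.2. *Hba-a1* ranged from 198 to 246 FPKM in *Dnmt3a*-/- and from 109.7 to 279.8 in WT, *Itga2b*, the platelet integrin, from 24.0 to 60.8 and from 12.9 to 61.5, and *Cd34*, whose product the gate sorts against, from 4.46 to 44.1 and from 5.43 to 60.6.

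**Figure D2:**
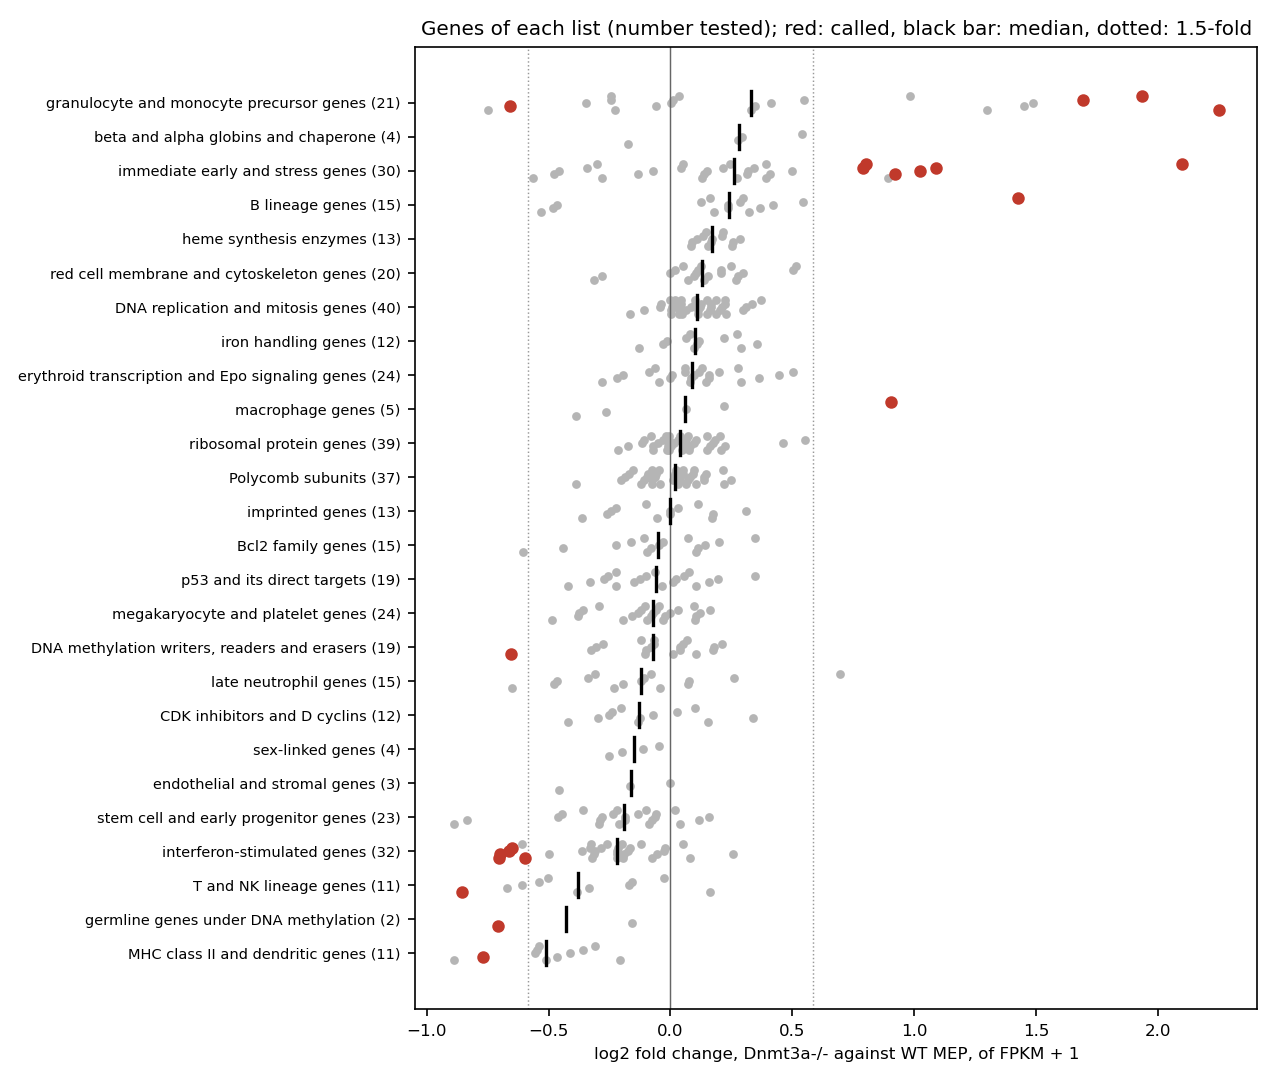
Log2 fold changes of FPKM + 1 between *Dnmt3a*-/- and WT MEP for the tested genes of each list, in grey where not called and in red where called, with the median as a black bar and the 1.5-fold limits dotted. Called genes lie to the right in the immediate early list, on both sides in the granulocyte precursor list (3 to the right and 1 to the left), to the left in the interferon-stimulated list, and are missing from the globin, heme, megakaryocyte and stem cell lists.

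Within both genotypes the libraries differed in these fates. *Dnmt3a*-/- replicates 2 and 3 and WT replicate 2 had the higher sums of the globin, heme, iron and red cell membrane lists, and *Dnmt3a*-/- replicate 1 and WT replicates 1 and 3 the higher platelet and stem cell sums. The erythroid transcription and Epo list did not split this way, at 1957 to 2052 FPKM in *Dnmt3a*-/- and 1845 to 1976 in WT. The globin list summed to 427, 560 and 534 FPKM in *Dnmt3a*-/- and to 278, 723 and 282 in WT, and the megakaryocyte list to 740, 397 and 503 and to 648, 314 and 846. Genes of DNA replication and mitosis split like the globin list, at 4802, 5710.5 and 5610.4 and at 4611, 5698 and 4378 FPKM, and 35 of its 40 tested members had a log2 fold change above 0 with a median of 0.11 and none called. The labels give no batch for the libraries, and the part of this split in the calls was not tested.

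**Figure D3:**
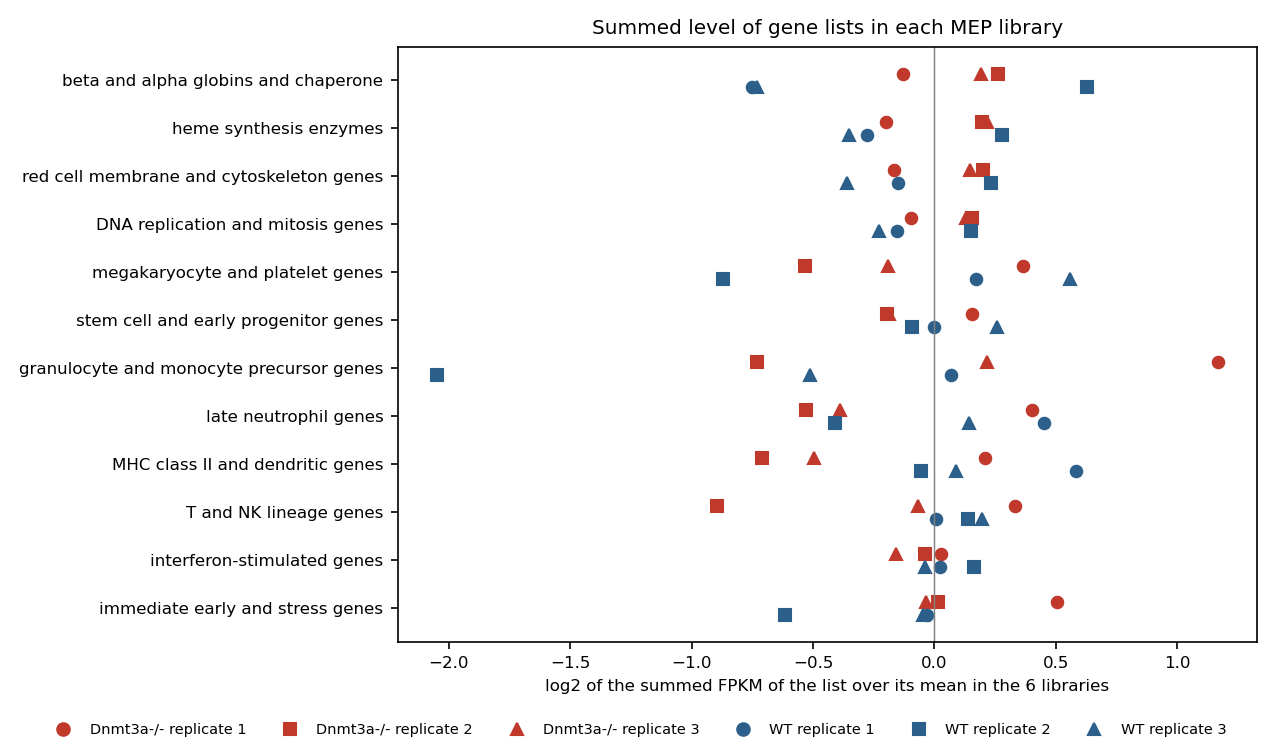
Summed FPKM of 12 gene lists in each MEP library, as the log2 ratio to the mean of the 6 libraries, with *Dnmt3a*-/- in red, WT in blue and 1 symbol per replicate number. WT replicate 2 lies with *Dnmt3a*-/- replicates 2 and 3 in the globin, heme and platelet lists, and the granulocyte precursor list spreads widest within each genotype.

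No tested member of the lists of genes that DNA methylation is known to keep silent was called higher, which in lists this small is near the 0.374% of all genes and no result about them. Of 30 germline genes in the table only 2 passed the filter, and 17 were listed at 0 in all 6 libraries. The 1 called member was lower. *Xlr4a*, an X-linked lymphocyte-regulated gene, had 3.501, 3.12 and 3.30 FPKM in *Dnmt3a*-/- and 5.47, 7.44 and 5.34 in WT MEP (-0.71, SE 0.15). It was not called without WT replicate 2 (-0.57) or in the fit of all 10 MEP libraries. Imprinted genes had 0 of 13 tested members called and a median of 0.00, with 95% intervals of single genes from -1.15 to 0.86. Also without a call were p53 and its targets (19 tested), the Bcl2 family (15), Polycomb subunits (37), CDK inhibitors and D cyclins (12), the listed ribosomal protein genes (39, which leave out 3 called ribosomal genes given below) and endothelial and stromal genes (3). In lists of these sizes this is near the 0.892% of all genes called and no result about them. Leaving out single libraries called at most 1 member in either direction in each of these lists. *Trp53* had 145.5 to 154 FPKM in *Dnmt3a*-/- and 113.8 to 139 in WT, which did not overlap, and differed by 0.19 (SE 0.10).

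Of the 93 called genes 72 stood in none of the lists. Those named next beside the largest changes were picked after their values had been seen. Among the higher ones were *Hist3h2a*, a histone H2A gene, with 22.3, 22.6 and 18.9 FPKM against 9.87, 9.80 and 14.6 (0.86, SE 0.16), *Scand1* with 6.90, 9.28 and 8.57 against 3.08, 5.11 and 4.77 (0.81, SE 0.19), and *Rgcc*, a regulator of the cell cycle, with 39.4, 40.6 and 45.6 against 22.8, 31.4 and 18.5 (0.79, SE 0.17). *Rps4l* (0.92), *Rpl34* (0.71) and *Rps13* (0.66), ribosomal genes with near-identical copies in the genome among which reads may be split, were called higher too and are uncertain. Lower ones were *Mpeg1*, the pore-forming protein of macrophages, by 0.89, *Fcer1g*, the Fc receptor gamma chain, by 0.60, *Ctss*, cathepsin S, by 0.66 and *Cd52* by 0.67 on the log2 scale. Of these, *Mpeg1*, *Ctss* and *Cd52* overlapped between the genotypes. All of these but *Fcer1g* were not called without *Dnmt3a*-/- replicate 2 or 3 or WT replicate 1. *Mpeg1* was also lost without WT replicate 3, and *Fcer1g* without *Dnmt3a*-/- replicate 2 or WT replicate 3. *Ctss* and *Cd52* were not called in the fit of all 10 MEP libraries. The 3 largest log2 fold changes upward were of short RNAs and a gene copy that are listed at 0 in all WT libraries. *Mir703* had 171 and 199 FPKM in *Dnmt3a*-/- replicates 2 and 3 and was listed at 0 in replicate 1, *Snora16a* had 30.3 and 27.9 in replicates 1 and 2 and was listed at 0 in replicate 3, and *Eno1b*, a copy of the enolase gene *Eno1*, had 19.3 and 15.4 in replicates 1 and 2 and was likewise listed at 0 in replicate 3. Downward the largest fitted change was of *Snora21*, also a short RNA, which had 56.1 and 79.9 FPKM in WT replicates 1 and 2 and was listed at 0 in WT replicate 3 and in all *Dnmt3a*-/- libraries.

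The same mice were compared in LSK cells, with the same model on the LSK table. There, 110 of 11615 tested genes were called (0.947%), 61 higher (0.525%) and 49 lower (0.422%), 500 (4.3%) had an unadjusted p under 0.05 and 9 (0.0775%) an adjusted p under 0.05. The count of calls was 185 (89 higher, 96 lower) without LSK WT replicate 1, 195 (68 higher, 127 lower) without LSK WT replicate 3, and 108 to 131 without each other LSK library. Of the 93 genes called in MEP, 85 were tested in LSK and 59 had the same direction there, 21 of 34 higher and 38 of 51 lower. The share of equal direction was thus 69.4%, beside 44.1% of all genes tested in both cell types. Called in both, in the same direction, were 12 genes, which are 12.9% of the MEP and 10.9% of the LSK calls, and 0 genes were called in opposite directions. Among the 12 were *Irf7* and *H2-Aa*, lower in both, and *Klf2*, *Klf6*, *Fos*, *Jund*, *Dusp1*, *Rhob*, *Tnfaip3*, *Hist3h2a* and *Eno1b*, higher in both. Leaving out single LSK libraries, an alternative chosen after seeing the data, kept 9 to 12 of these 12. *H2-Aa* was lost without *Dnmt3a*-/- replicate 1 or 2 or WT replicate 2, *Hist3h2a* without *Dnmt3a*-/- replicate 1 (0.58) or 3 (0.46) or WT replicate 3 (0.52), and *Eno1b* without *Dnmt3a*-/- replicate 1 or 2 or WT replicate 3. Since the LSK and MEP cells came from the same 6 mice, this is not a repeat in other animals.

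*Klf2* had 168, 198 and 125 FPKM in *Dnmt3a*-/- against 34.1, 40.8 and 31.2 in WT LSK (2.16, limma adjusted p = 0.0022), beside 2.10 in MEP. Its groups did not overlap in either cell type. By limma *Klf6* was higher by 1.78 in LSK (adjusted p = 0.0045) and by 1.09 in MEP, *Rhob*, a small GTPase with immediate early kinetics, by 1.42 (adjusted p = 0.0045) and 0.85, and *Jund* by 1.08 (adjusted p = 0.0329) and 0.79. In MEP *Rhob* had 78.5, 40.9 and 35.8 FPKM against 29.7, 16.8 and 37.6, with overlap, and it was not called without *Dnmt3a*-/- replicate 1 (0.51) or WT replicate 1 (0.92) or 2 (0.53). *Tnfaip3*, the NF-kappa B inhibitor A20, had 127.9, 109.9 and 133.7 against 117.6, 52.6 and 62.4 in MEP (0.75, SE 0.26), and was not called without *Dnmt3a*-/- replicate 1 (0.73) or 3 (0.69) or WT replicate 2 (0.52) or 3 (0.64). *Eno1b* had 13.6 and 11.4 FPKM in LSK of the same *Dnmt3a*-/- mice that had it in MEP and was listed at 0 in the third, so that this call follows 2 animals. It was called without *Dnmt3a*-/- replicate 3 (4.19) and in none of the other fits that left out 1 library, at 2.02 to 2.79. By list, LSK had 14 of 30 tested immediate early and stress genes called higher, against 0.525% of all genes. Called lower were 3 of 39 interferon-stimulated, 2 of 11 MHC class II and 7 of 18 late neutrophil genes, against 0.422%, and 0 of 26 granulocyte precursor genes were called. WT replicate 2 stood apart in LSK, with *S100a8* at 4389 FPKM against 824 and 760.1 in the other WT libraries, *S100a9* at 3736 against 801 and 735, and *H2-Aa* at 250.2 against 137 and 104, where *Dnmt3a*-/- LSK had 79.9 to 105 and overlapped. Without it 5 of 18 late neutrophil genes (median -0.38, from -1.07), 0 MHC class II genes and 2 interferon-stimulated genes were called lower, and *H2-Aa* (-0.35) was not called. Leaving out each other LSK library gave 3 to 15 late neutrophil, 0 to 4 MHC class II and 2 to 5 interferon-stimulated genes lower and 12 to 16 immediate early genes higher, with the most late neutrophil genes without WT replicate 1 (15) or 3 (12). Further LSK calls were 2 of 17 B lineage genes and 1 of 8 T and NK genes higher, 2 of 9 endothelial genes higher and 1 lower, and 1 gene higher in each of the megakaryocyte, red cell membrane, p53 and Bcl2 lists. In the B lineage list 9 of 17 genes were called higher without LSK WT replicate 2 (median 0.68, from 0.34). Of 15 macrophage genes 0 were called with all LSK libraries (median -0.81), and 14 were called lower without LSK WT replicate 3 (median -1.52). Of all tested LSK genes, 90 were called higher and 41 lower without LSK WT replicate 2. The numbers were 89 and 96 without LSK WT replicate 1, and 68 and 127 without LSK WT replicate 3.

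**Figure D4:**
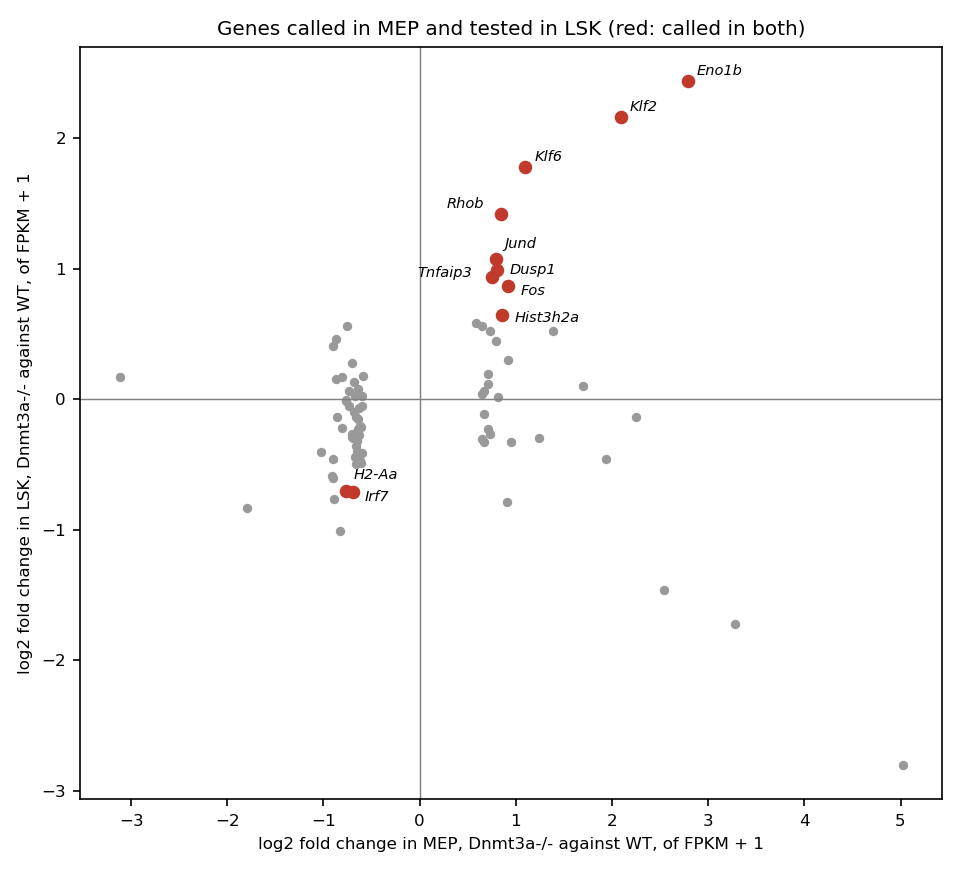
Log2 fold changes of FPKM + 1 between *Dnmt3a*-/- and WT in MEP (horizontal) and LSK (vertical) of genes called in MEP and tested in LSK, in red where called in both. The red genes lie in the quadrants of equal sign, 9 of them higher in both.

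Whether the effect of the genotype differed between the cell types was tested on the MEP minus LSK difference of each mouse. Among 10211 genes that were tested in both cell types, 113 (1.11%) were called for a difference, and 968 of the 10211 had an unadjusted p under 0.05. None of them passed after adjustment by limma, and the lowest adjusted p was 0.403. Among the 113 were 20 of the 85 genes called in MEP and tested in LSK. Genes called in MEP were chosen for their effect there, which favours a difference from LSK in advance. Their number, and the genes named next, are thus no support for a difference. *Xlr4a* had the difference with the lowest p among the named genes. It was lower in *Dnmt3a*-/- MEP (-0.71) and had 9.22, 7.62 and 7.66 against 6.74, 7.26 and 5.71 FPKM in LSK (0.28), and the effects differed by -0.98 (SE 0.12, limma adjusted p = 0.403). *LOC100504703* (-0.87 in MEP and 0.47 in LSK), *Gm12191* (-3.12 and 0.17) and *Trim30a* (-0.59 and 0.02) were also called for a difference, of -1.34, -3.29 and -0.62, none of them after adjustment. For *Klf2* (-0.07), *Fos* (0.06) and *Irf7* (0.02) the difference of the effects was small against its standard error.

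The CpG content of the promoters, which the choice of genes did not use, differed between the directions. The 250-base windows held a median of 16.1 CpG, averaged over a gene's windows, in the 8038 tested genes with a window, 15 in 27 genes called higher and 4 in 36 genes called lower. With the genes split into 4 bins of rising CpG count, 27 of 2009 genes with 0 to 10.2 CpG were called lower (1.34%), against 3 of 2010 (0.149%), 5 of 2204 (0.227%) and 1 of 1815 (0.0551%) in the bins with more CpG. The shares called higher were 0.448%, 0.348%, 0.227% and 0.331%. The median log2 fold change was -0.041 in the bin with the fewest CpG and 0.005, 0.009 and -0.004 in the others. Genes of this bin also had lower levels, with a median of 9.84 FPKM against 18.1 to 19.4, and the part of level in the count was not tested. In LSK 17 of 1929, 2 of 1994, 2 of 2181 and 4 of 1793 genes were called lower in the same order of bins, and 9, 5, 9 and 11 higher. No methylation was measured. Among the genes shown above *Oas1a* had 3 and *Trim30a* 0 CpG in its window, and *Klf2* 29 and *Dusp1* 28. By position, 5 of the 91 called genes with a chromosome lay on chromosome 12, which carries *Dnmt3a* (5.49%), against 348 of 10042 tested genes (3.47%).

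The other genotypes, each compared with the same WT libraries and so not independent, put the values of these genes in context. *LOC100504703* had 9.17 and 8.93 FPKM in the *Bcor*-/- MEP libraries, the first of which carries the numbers of a pair of mice, below the WT values. It had 16.6 and 7.10 in double knockout MEP, also below WT. *Klf2* had 17.2 and 16.7 FPKM in *Bcor*-/- and 26.9 and 139 in double knockout MEP, all above WT. *Irf7* had 4.67 and 5.91 in *Bcor*-/- MEP, near the *Dnmt3a*-/- values, and 65.7 and 28.9 in the double knockout, above every other MEP library.

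The number of calls depended on 2 libraries. Without *Dnmt3a*-/- replicate 1, 294 genes were called, 256 of them lower, and without WT replicate 2, 233 were called, 72 higher and 161 lower. Without any other library the number was 73 to 76. Of the 93 genes 22 were called in each of the 6 fits. These 22 include *Klf2*, *Jund*, *Hspa1b*, *Prg2*, *Hist3h2a*, *Vcam1*, *Hes1*, *Ccr2*, *S100a4* and *Ctsh*. With the other alternative fits counted as well, 17 genes were called in every fit in which they were tested. *Ccr2* and *Vcam1* were not called in the fit of all 10 MEP libraries. *Hspa1b* and *Vcam1* passed the filter on low values only through the *Dnmt3a*-/- libraries.

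**Figure D5:**
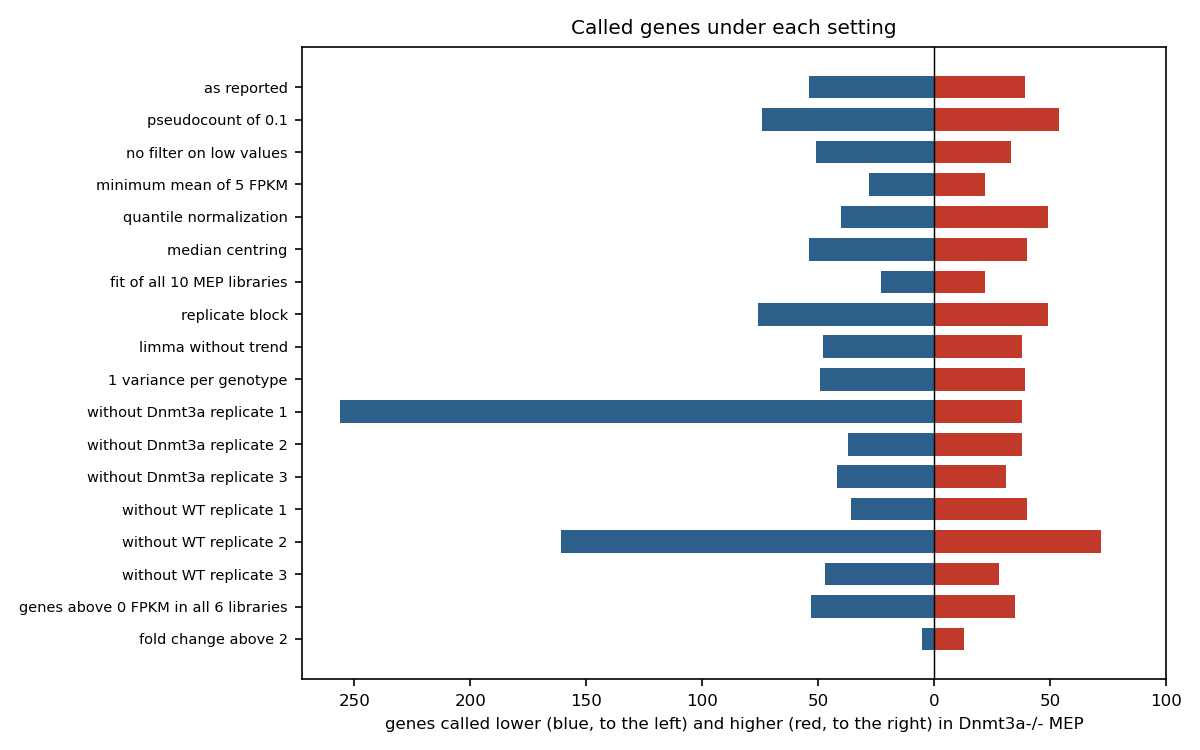
Number of genes called higher (red, to the right) and lower (blue, to the left) in *Dnmt3a*-/- MEP as reported and under each other setting. The longest bars are those without *Dnmt3a*-/- replicate 1, with 256 genes lower, and without WT replicate 2, with 161 lower and 72 higher.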

How the data were processed

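RNA of sorted bone marrow MEP and LSK cells was sequenced by the authors, who deposited 1 table per cell type with FPKM per gene. Per the submitters' processing notes, STAR 2.5.1b, SAMtools 1.9, Cufflinks 2.2.1 and the mouse build mm9 were used. The library kit's strand handling is not given in the sources used here. The deposited FPKM were taken as they are, with 0 columns left unmapped, and analysed as log2(FPKM + 1) for genes with a mean of 1 FPKM or more. Since the values are no counts, limma 3.58.1 in R 4.3.3 with a mean-variance trend was the main test, on the 3 *Dnmt3a*-/- and 3 WT MEP libraries, two-sided, with Benjamini-Hochberg adjusted p-values over all tested genes. The study states limits on p and fold change. The test and any adjustment behind them are not given in the sources used here. Effects in MEP and LSK were compared by limma on the MEP minus LSK difference of each mouse. The fit was tested on simulated data.

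The comparison, its gene lists and the rule for named genes were chosen with earlier results of these data known, and the promoter motifs after the promoters had been read. Named were the DNA methylation genes, the 10 largest changes without overlap in each direction, called list members, the 2 most abundant members of lists without calls, the most abundant member of each list of other cell types, genes with an adjusted p under 0.05 in any fit and genes called in both cell types. Other genes, among them the uncalled examples of the lists, were picked after their values had been seen. Some genes that the rule names are not reported here. Alternatives varied the pseudocount, the filter, the scaling, the libraries and the model. Promoter windows came from RefSeq (GRCm38.p6), another build than that of the tables, and were joined by symbol. Figures were drawn with matplotlib 3.10.9. Precision is limited by 3 mice per group, and sequencing depth is unknown.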

Additional observations from a re-analysis of the deposited data

How the results depend on the processing

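The 93 calls became 50 (22 higher, 28 lower) with a minimum mean of 5 FPKM, 45 (22 and 23) in a fit of all 10 MEP libraries, and 18 (13 and 5) at a fold change above 2. With Benjamini-Hochberg adjustment limma called 0 (0 higher and 0 lower), where 533 genes had an unadjusted p under 0.05. Leaving out 1 library gave 73 to 294 calls, 28 to 72 higher and 36 to 256 lower, with the high ends without *Dnmt3a*-/- replicate 1 (294 calls) and WT replicate 2 (233). A pseudocount of 0.1 (128), no filter (84), quantile normalization (89), median centring (94), no trend (86), 1 variance per genotype (88) and, chosen after seeing the data, genes above 0 in all 6 libraries (88) stayed within 1.5 times the count. *Dnmt3a* was not called after quantile normalization (-0.574), ranged from -0.909 to -0.487 without single libraries, and was dropped by the minimum of 5 FPKM. The 113 genes whose effect differed between MEP and LSK became 198 with a pseudocount of 0.1, 114 to 327 without single libraries and 0 after adjustment by limma, with 968 at an unadjusted p under 0.05. Among 1335 values of single named genes under the alternatives, 1240 kept their side of the threshold, 87 lost the call, 8 gained it and 0 called values changed sign, while 18 of 55 uncalled named genes changed sign in at least 1 setting. The cause of these changes was not tested. Same-numbered *Dnmt3a*-/- and WT libraries are not known to share more than a number. Their deviations correlated at 0.2, 0.34 and -0.19 across genes for numbers 1 to 3, which does not settle whether they share more. The best matching WT library had number 3, 2 and 2 for *Dnmt3a*-/- replicates 1 to 3. For WT replicates 1 to 3 the best matching *Dnmt3a*-/- library had number 1, 2 and 1. With the number as a replicate block, 125 genes were called (49 higher, 76 lower), all 93 among them, and 6 had an adjusted p under 0.05 (among them *Elane*, *Ly6c2*, *Ms4a3*, *Prg2* and *Prtn3*). The unknown depth and 3 mice per group limit the precision of low genes.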
